A study of Homo sapiens with 24 samples.

Results

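The RAB GTPases are the largest branch of the Ras superfamily, and they were followed here together with the sorting nexin SNX27 in K-ras mutant non-small cell lung cancer (NSCLC) cells depleted of protein kinase C delta (PKCδ, gene PRKCD). A list of 47 genes, 46 of them RAB genes, was matched to the transcript clusters of the array that carry that single gene symbol, and where a gene had several, the one that averaged highest across the 24 arrays was used. This gave values for 46 of the 47 genes (45 RAB genes and SNX27) among 18417 genes measured in this way. RAB34 was not described, because its cluster is shared with a further symbol, NARR. A second cluster exists for RAB7A and for RAB13 and was not used in the main fit. The arrays came from H2009, H441, A549 and H460, established human NSCLC lines. Each line stably expressed either δ193, a lentiviral shRNA against the coding region of PKCδ (labelled knock-down), or δscr, a scrambled shRNA (labelled Scrambled), with 3 replicate arrays for each of the 8 groups. H2009 and H441 are classed as K-ras dependent and A549 and H460 as K-ras independent. No further PKCδ shRNA was profiled here, so a change from loss of PKCδ and any other effect of that hairpin cannot be told apart.

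RAB proteins cycle between a GDP-bound form held in the cytosol by GDI and a GTP-bound form on membranes, where they recruit effectors such as tethers, motors and coat adaptors. Guanine nucleotide exchange factors switch a RAB on and GTPase activating proteins switch it off, and each RAB marks a particular step, for example RAB5 on early endosomes, RAB4 and RAB11 in recycling, RAB7 on late endosomes, RAB1 and RAB2 between the endoplasmic reticulum and the Golgi, and RAB3 and RAB27 in regulated secretion. SNX27 binds cargo receptors on early endosomes through its PDZ domain and, with retromer and the WASH complex, returns them to the cell surface.

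Values are the log2 expression values of the array, which were normalised over all arrays together, and array medians lay between 4.78 and 4.91. A gene was called when limma's moderated test gave a Benjamini-Hochberg adjusted p under 0.05 over the 18417 genes and the 2 means differed by a factor at least 25% above 1 in either direction (0.322 on the log2 scale). The p-values rest on the spread between replicate arrays of a group, taken for each gene over all 8 groups in 1 fit. The SE of a gene is therefore the same in each line. Nothing in the sources says that the 3 replicates of a line came from separate transductions. PRKCD itself fell in every line with δ193, with log2 changes of -2.25 (H2009), -2.40 (H441), -1.26 (A549) and -2.03 (H460; SE 0.20). The 2 groups of H441 arrays were the most variable: the spread within them, as a residual variance, was 2.44 times that of the other lines at the median. The shared spread is thus, on average over genes, smaller than that within the H441 arrays. The H441 arrays also stood apart from what their label leads one to look for, since H441 is widely used as a line that expresses surfactant protein B and NKX2-1. In H441 δscr cells SFTPB averaged 4.01 and NKX2-1 4.21, close to the 4.22 and 3.88 of A549 δscr cells, and the epithelial markers EPCAM (5.89) and CDH1 (6.41) were far below the 11.2 that both reached in H2009 δscr cells. The keratins KRT7, KRT8 and KRT18 were high in all lines, and the leukocyte marker PTPRC lay between 2.66 and 2.79 in every group mean. The identity of the H441 arrays was not tested, and counts, means and F tests over the lines that include them are also given without them. Of the 21 marker genes measured for other cell types and epithelial state, 7 had a called change in at least 1 line, beside 22.5% of all genes. The epithelial CDH1 fell by 1.20 with δ193 in H441 and by 0.52 over the mean of the lines, and KRT19 fell by 0.55 in H441 and rose by 1.20 in H460. Of the mesenchymal genes, FN1 fell by 1.27 in H441, ZEB1 rose by 0.60 in H2009, and CDH2 rose by 0.78 in A549 and fell by 0.43 in H441 and 0.34 in H460. The monocyte gene CD14 fell by 0.75 in A549 and rose by 0.57 in H460, and the endothelial PECAM1 fell by 0.51 in H441. The PECAM1 means there were low, at 4.13 with δscr and 3.63 with δ193, both below the array medians. The part of these shifts in the RAB results was not tested.

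RAB23 and SNX27 were the only genes of the set called in all 4 lines, both lower with δ193. RAB23 is a RAB that restrains hedgehog signalling in the mouse and has a role in ciliary trafficking. Across the array, 29 of 18417 genes (0.157%) were lower in all 4 lines. The 300 bases around the annotated start of RAB23 and SNX27 are shown, as the 2 genes of the set called in all 4 lines. They come from RefSeq on build GRCh38.p14, and most of them are upstream. Matches to a GC box (GGGCGG) or a CCAAT box (CCAAT) on either strand are in capitals. The RAB23 window is chr6:57222258-57222557 on the minus strand, the first of 2 windows listed, and holds 1 GC box and 1 CCAAT box. The SNX27 window is chr1:151611800-151612099 on the plus strand and holds 2 GC boxes.
RAB23: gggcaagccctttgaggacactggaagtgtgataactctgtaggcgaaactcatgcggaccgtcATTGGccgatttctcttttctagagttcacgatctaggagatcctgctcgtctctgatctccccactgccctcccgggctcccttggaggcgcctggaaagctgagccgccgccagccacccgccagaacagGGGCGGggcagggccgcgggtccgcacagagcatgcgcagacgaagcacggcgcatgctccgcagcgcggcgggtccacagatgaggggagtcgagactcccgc
SNX27: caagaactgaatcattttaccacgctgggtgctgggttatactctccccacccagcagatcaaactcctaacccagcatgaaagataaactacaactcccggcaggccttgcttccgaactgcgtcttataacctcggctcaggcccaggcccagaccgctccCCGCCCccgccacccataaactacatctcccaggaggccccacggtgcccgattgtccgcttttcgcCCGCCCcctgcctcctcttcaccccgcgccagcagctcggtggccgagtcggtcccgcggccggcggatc
Neither window held the AP-1 site TGACTCA or the E-box CACGTG. Windows were listed for 38 of the genes studied, and 33 of them (86.8%) held a GC box, 9 (23.7%) a CCAAT box, 3 (7.89%) the AP-1 site and 5 (13.2%) the E-box. Among all 27305 genes with a window in the same table, 44.6% held a GC box, 35.7% a CCAAT box, 4.92% the AP-1 site and 7.43% the E-box. Those 27305 genes were not limited to the 18417 genes measured on the array and were not matched for level. The matches describe letters in a window and were not tested against expression.

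RAB23 was lower on every δ193 array than on every δscr array of its line. H2009 δ193 arrays read 6.24, 5.93 and 6.02, against 7.85, 7.58 and 7.61 on H2009 δscr arrays. H441 δ193 arrays read 5.54, 5.29 and 5.18, against 6.84, 6.95 and 6.75 on H441 δscr arrays. A549 δ193 arrays lay at 5.30, 5.30 and 5.22, against 6.84, 6.74 and 6.71 on A549 δscr arrays. The δ193 arrays of these 3 lines were thus more than 1 log2 unit below their controls. H460 gave 6.10, 6.14 and 5.74 with δ193, against 6.90, 6.96 and 7.07 with δscr, a smaller gap. The log2 changes were -1.62 (H2009, adjusted p = 3.04e-09), -1.51 (H441, 3.69e-09), -1.48 (A549, 1.05e-08) and -0.99 (H460, 3.08e-06), with an SE of 0.11 each (limma). On the linear array scale δ193 cells held 32.6% (H2009), 35.1% (H441), 35.7% (A549) and 50.5% (H460) of the δscr level. The mean change over the 4 lines was -1.40 (SE 0.06, adjusted p = 1.34e-13), the smallest p of the 18417 genes in that comparison, and it was -1.36 without H441 (adjusted p = 1.45e-10). The changes differed among lines (limma F test with 3 degrees of freedom, adjusted p = 0.028, and 0.0136 over 3 lines without H441), and the pair past the test was H2009 and H460, whose changes differed by -0.63 (SE 0.16, adjusted p = 0.0228). In RNA from whole cultures, fewer cells that express a gene and less RNA per cell cannot be told apart. The averages of the K-ras dependent and independent lines differed by -0.33 (SE 0.11), which did not pass the test (adjusted p = 0.102).

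SNX27 was also lower on every δ193 array of each line, by a narrower margin. In H2009 it read 8.08, 8.11 and 8.04 with δ193, against 8.82, 9.01 and 8.74 with δscr. In H441 it read 7.38, 7.43 and 7.49 with δ193, against 8.47, 8.41 and 8.30 with δscr. A549 cells gave 7.96, 7.82 and 7.83 with δ193, against 8.69, 8.40 and 8.52 with δscr. The 3 lines show the same separation of arrays, widest in H441. H460 cells gave 8.24, 8.21 and 8.10 with δ193, against 8.97, 9.03 and 8.99 with δscr. The log2 change was -0.78 (H2009, adjusted p = 4.00e-06), -0.96 (H441, 6.17e-08), -0.67 (A549, 2.56e-05) and -0.82 (H460, 1.22e-06), with an SE of 0.09 each (limma). δ193 cells thus held 58.2% (H2009), 51.3% (H441), 63.0% (A549) and 56.8% (H460) of the δscr level. Its mean change was -0.81 (SE 0.04, adjusted p = 6.91e-12), rank 10 by p among all genes, and -0.76 without H441 (adjusted p = 1.15e-08). The 4 changes did not differ past the F test (adjusted p = 0.362, and 0.633 without H441), and the class difference was -0.13 with a 95% interval of -0.31 to 0.05. In a fit without H441, 41 genes (0.223%) were lower in the other 3 lines, RAB23 and SNX27 among them. The plot of both genes on the 24 arrays shows the separation.

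**Figure D1:**
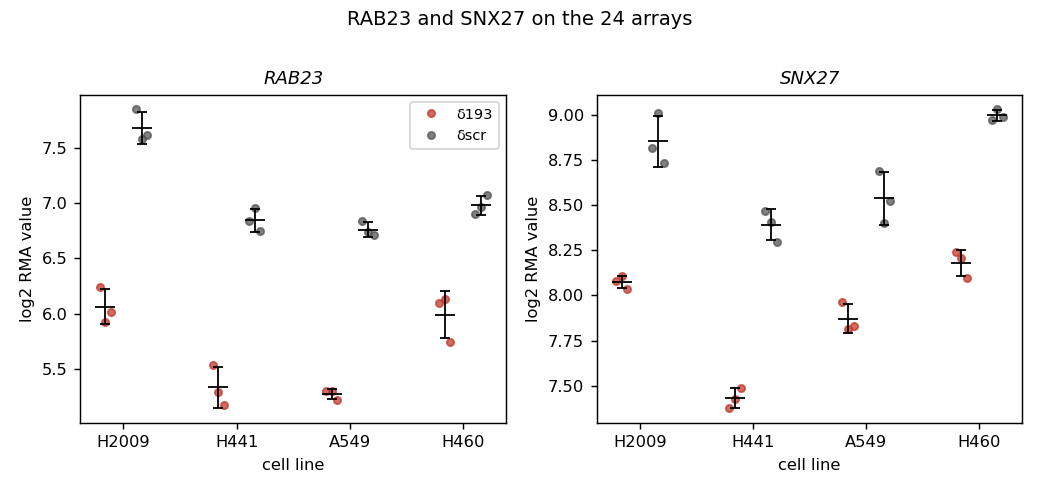
Log2 RMA values of RAB23 (left) and SNX27 (right) on each array, by cell line, with δ193 in red to the left of δscr in grey and the mean and SD of 3 arrays in black. In every line the δ193 arrays lie below all δscr arrays, with the narrowest RAB23 gap in H460 (mean change -0.99).

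The other genes of the set changed in few lines each. In H2009, 4 of the 46 genes (8.7%) were called lower and 2 (4.35%) higher, against 2.25% and 2.66% of all genes. H441 had 7 lower (15.2%) and 1 higher (2.17%), against 7.22% and 7.09% of all genes. A549 had 4 lower and 2 higher, against 2.58% and 2.05% of all genes, and H460 had 5 lower (10.9%) and 2 higher, against 3.44% and 2.01%. The shares called lower lay above the array background in each line, but RAB23 and SNX27 make up 2 genes of each of these counts. The study of these arrays had already reported both as lower in K-ras dependent and independent lines. The genes were listed with that known, so these counts do not test whether RAB genes fall more often than others. The shares called higher rest on 1 or 2 genes a line. In all, 16 genes (34.8%) were called in at least 1 line, against 22.5% of all genes. In the fit without H441 it was 15 (32.6%), against 17.5% of all genes. RAB3B and RAB17, called in no line with H441 included, were among those 15. Of the 16 genes, 9 were called in 1 line, 5 in 2 lines and 2 in all 4 lines, and 30 were called in none. The median log2 change of the 46 genes was -0.06 (H2009), -0.09 (H441), -0.03 (A549) and 0.01 (H460), beside 0.01, 0.00, 0.01 and 0.01 over all genes. Members that rose and fell offset each other in these signed medians. The median size of change, regardless of direction, was 0.13 (H2009), 0.18 (H441), 0.17 (A549) and 0.15 (H460), beside 0.11, 0.15, 0.10 and 0.11 over all genes, with RAB23 and SNX27 counted in. For the mean over the 4 lines, 5 genes were lower (RAB23, SNX27, RAB5B, RAB12 and RAB15) and 0 higher by limma (8 higher at an unadjusted p under 0.05), against 2.14% and 1.49% of all genes. Without H441 the same 5 genes were lower and RAB31 was higher (0.36, adjusted p = 5.72e-06), against 1.8% and 1.45% of all genes.

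**Figure D2:**
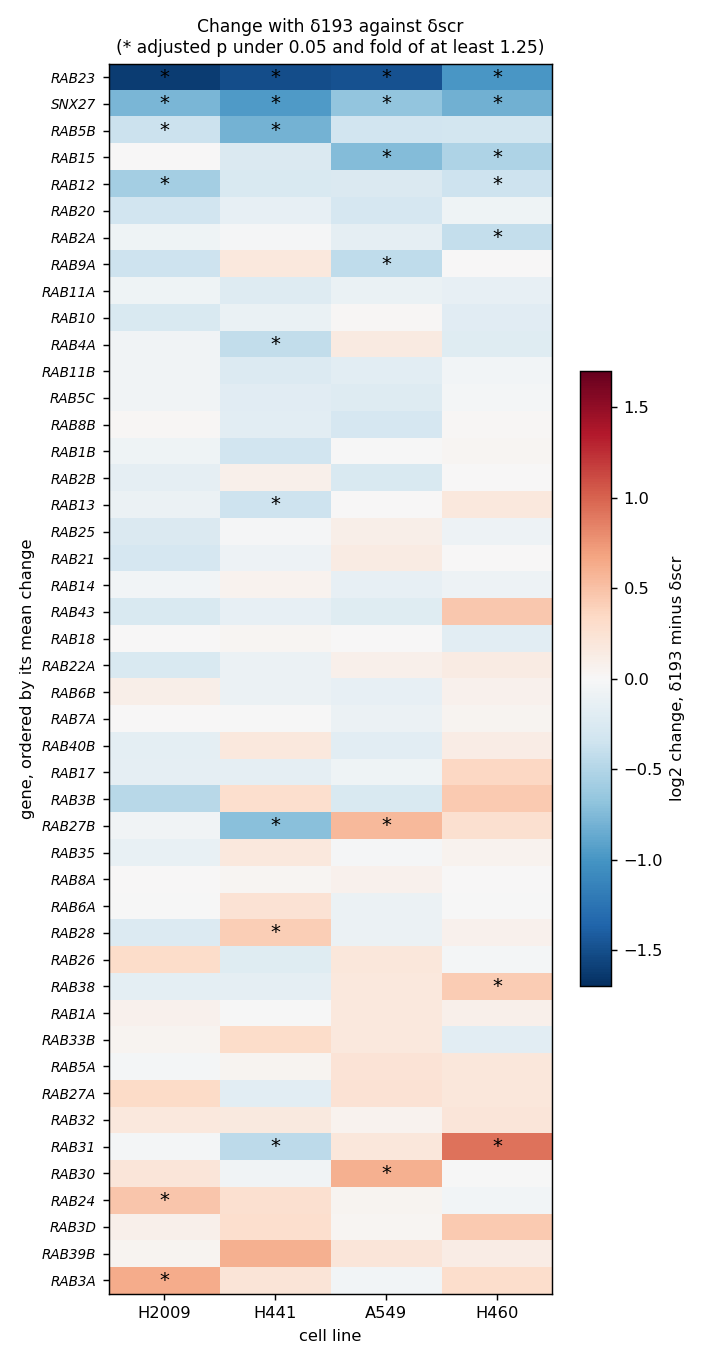
Log2 change (δ193 minus δscr) of the 46 genes in each line, ordered by the mean over the lines, with asterisks for called changes. RAB23 and SNX27 stand at the top in blue across all 4 columns, and most other cells are pale, with single coloured cells such as RAB31 in H460 (0.92).

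By the mean change over the 4 lines, RAB5B, RAB15 and RAB12 followed SNX27. RAB5B, a form of the early endosome GTPase RAB5, was lower on all δ193 arrays than on all δscr arrays in each of the 4 lines. In H441 it read 7.46, 7.12 and 7.19 with δ193, against 8.30, 7.97 and 7.91 with δscr. In H2009 it read 7.74, 7.54 and 7.69 with δ193, against 8.12, 8.03 and 7.91 with δscr. The H441 arrays show the wider gap. RAB5B fell by 0.80 in H441 (SE 0.11, adjusted p = 1.43e-05) and by 0.36 in H2009 (adjusted p = 0.0494). The H2009 call remained in 6 of 24 fits that each left out 1 array. It was lost without any 1 of the H2009 or H460 arrays, 5 of the A549 arrays (all but δscr replicate 1) or H441 δscr replicate 2, with an adjusted p of up to 0.217 (without H2009 δ193 replicate 2, change -0.30). It was also lost after a further quantile normalisation (0.0543) and with H2009 fitted alone (0.0589). The changes of -0.33 in A549 (adjusted p = 0.0855) and -0.32 in H460 (0.0942) did not pass. Its mean change was -0.45 (SE 0.05, adjusted p = 2.34e-06) and -0.34 without H441. Its relatives RAB5A and RAB5C were called in no line, with RAB5A at 0.24 and RAB5C at -0.22 in A549, where RAB5B stood at -0.33.

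RAB12, which takes part in transport from recycling endosomes to lysosomes, was called lower in H2009 and H460, and its δ193 arrays lay below its δscr arrays in all 4 lines. H2009 read 6.33, 6.17 and 6.29 with δ193, against 7.01, 6.88 and 6.64 with δscr. H460 read 6.08, 5.98 and 5.93 with δ193, against 6.28, 6.52 and 6.24 with δscr. The groups were apart in both lines, but 2 of the H460 δscr arrays lay close to the δ193 arrays. RAB12 fell by 0.58 in H2009 (SE 0.10, adjusted p = 0.000852) and by 0.35 in H460 (adjusted p = 0.0404), and the H460 call remained in 17 of 24 fits with 1 array left out. It was lost without any 1 of the 6 H460 arrays, with an adjusted p of up to 0.259 (without δscr replicate 2, change -0.27), and without H2009 δ193 replicate 3 (0.0503). It was also lost with a trended and robust variance (0.0558), with the replicate number as a block (0.0675), with array medians set equal (0.0513) and by the methods' t-test after adjustment (0.128). RAB12 stood at -0.26 in H441 (adjusted p = 0.0858) and -0.25 in A549 (0.205), with a mean change of -0.36 (SE 0.05, adjusted p = 2.13e-05) and -0.39 without H441.

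RAB15, a RAB of early and recycling endosomes, was called lower in both K-ras independent lines. A549 read 7.40, 7.43 and 7.49 with δ193, against 8.27, 8.10 and 8.15 with δscr. H460 read 5.14, 5.15 and 5.14 with δ193, against 5.52, 5.82 and 5.65 with δscr. Neither line's groups overlapped. RAB15 fell by 0.73 in A549 (SE 0.10, adjusted p = 4.34e-05) and by 0.52 in H460 (adjusted p = 0.00177). In the K-ras dependent lines it was close to the low end of its range, with means of 4.87 (δ193) and 4.86 (δscr) in H2009 and 4.64 (δ193) and 4.88 (δscr) in H441, and was called in neither. The change in H2009 and H441 minus that in A549 and H460 was 0.51 (SE 0.10, adjusted p = 0.0034).

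The secretory RAB27B changed in opposite directions in 2 lines. RAB27B and its paralog RAB27A dock secretory vesicles and multivesicular endosomes at the plasma membrane. In H441 RAB27B read 7.07, 6.92 and 6.68 with δ193, against 7.76, 7.49 and 7.56 with δscr. In A549 it read 9.58, 9.37 and 9.52 with δ193, against 8.99, 8.83 and 9.0 with δscr. The arrays of both lines were fully separated, below the controls in H441 and above them in A549. RAB27B fell by 0.71 in H441 (SE 0.10, adjusted p = 3.69e-05) and rose by 0.55 in A549 (adjusted p = 0.00134). H460 stood at 0.27 and H2009 at -0.06, neither called. The changes differed among lines (F test, adjusted p = 1.13e-05, and 0.00477 without H441), with H441 minus A549 at -1.26 (SE 0.14, adjusted p = 5.19e-06) and H441 minus H460 at -0.98 (0.000283). RAB27A was called in no line, with changes between -0.18 in H441 and 0.33 in H2009.

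RAB31, which works between the trans-Golgi network and endosomes, gave the largest rise of the set. In H460 it read 10.13, 10.18 and 10.12 with δ193, against 9.19, 9.23 and 9.25 with δscr. In H441 it read 8.44, 8.74 and 7.94 with δ193, against 8.90, 8.84 and 8.69 with δscr. H460 arrays were tightly separated, while the H441 groups overlapped and their lowest value came from δ193 replicate 3. RAB31 rose by 0.92 in H460 (SE 0.13, adjusted p = 3.06e-05), to 190% of the δscr level, and was called lower in H441 at -0.44 (adjusted p = 0.0167). The H441 call was lost without δ193 replicate 3 (change -0.22, adjusted p = 0.102) without δscr replicate 1 (-0.39, 0.0674) and with H441 fitted alone (0.298). The difference among lines passed the F test (adjusted p = 8.01e-05, and 6.93e-06 without H441), with differences of change past the test for H2009 minus H460 (-0.95), H441 minus H460 (-1.37) and A549 minus H460 (-0.73).

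A further 5 genes were called higher in 1 line each. RAB3A, which primes synaptic and other secretory vesicles for release, read 7.05, 6.99 and 7.03 in H2009 δ193 cells, against 6.39, 6.46 and 6.33 in H2009 δscr cells, and rose by 0.63 (SE 0.11, adjusted p = 0.000754). RAB24, an atypical RAB linked to autophagy, read 7.72, 7.69 and 7.92 in H2009 δ193 cells, against 7.22, 7.35 and 7.33 in H2009 δscr cells, and rose by 0.47 (adjusted p = 0.00808). Both genes were separated in H2009 without overlap. RAB30, a Golgi RAB, read 6.95, 6.76 and 6.68 in A549 δ193 cells, against 6.20, 6.11 and 6.27 in A549 δscr cells, and rose by 0.60 (SE 0.12, adjusted p = 0.00271). RAB28, linked to cilia and photoreceptors, read 5.14, 5.29 and 5.19 in H441 δ193 cells, against 4.72, 4.73 and 4.92 in H441 δscr cells, and rose by 0.42 (adjusted p = 0.0276). RAB38, which with RAB32 delivers cargo to melanosomes and related organelles, read 5.02, 4.81 and 5.26 in H460 δ193 cells, against 4.81, 4.50 and 4.50 in H460 δscr cells. The lowest RAB38 δ193 array was at the level of the highest δscr array, so the groups touched. The rise of 0.43 (SE 0.11, adjusted p = 0.0178) held in 20 of 24 fits with 1 array left out, and each loss was without an H460 array. It was lost without H460 δscr replicate 2 (adjusted p = 0.109) or 3 (0.110) and without H460 δ193 replicate 1 (0.0579) or 3 (0.162), after a further quantile normalisation (0.0503) and with H460 fitted alone (0.0615). The rise of RAB24 was lost without H2009 δscr replicate 1 (0.0519) or δ193 replicate 3 (0.0636), and that of RAB28 without H441 δscr replicate 1 (0.0883) or 2 (0.0807) or δ193 replicate 2 (0.0769), with array weights (0.0931) and with H441 fitted alone (0.133).

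**Figure D3:**
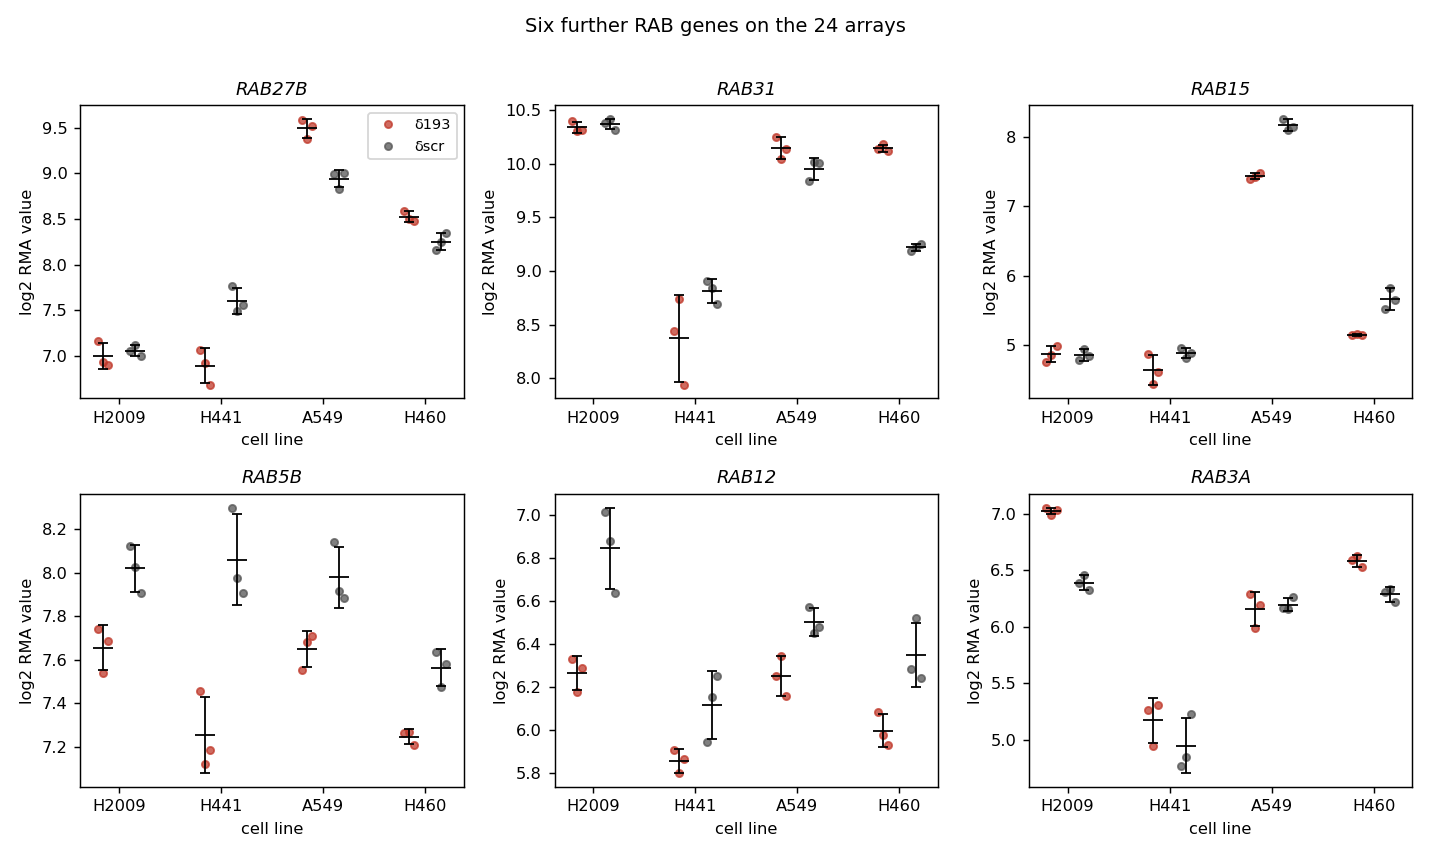
Log2 RMA values of RAB27B, RAB31, RAB15, RAB5B, RAB12 and RAB3A on each array by line, with δ193 in red left of δscr in grey and the mean and SD of 3 arrays in black; the axis range differs between panels. RAB27B is lower with δ193 in H441 and higher in A549, RAB31 is higher with δ193 in H460, and RAB5B δ193 arrays lie below the δscr arrays in all 4 lines.

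RAB2A, RAB9A, RAB13 and RAB4A were called lower in 1 line each. RAB2A, of traffic between the endoplasmic reticulum and Golgi, fell by 0.41 in H460 (SE 0.10, adjusted p = 0.011), and its δ193 arrays lay below all δscr arrays. RAB9A, which returns receptors from late endosomes to the trans-Golgi network, fell by 0.43 in A549 (adjusted p = 0.0148). RAB13, a RAB of tight junction traffic, fell by 0.35 in H441 (adjusted p = 0.0139), and RAB4A, of fast recycling, by 0.41 in H441 (adjusted p = 0.0288) with overlapping arrays. RAB9A changed differently among lines (F test, adjusted p = 0.0138, but 0.0719 without H441) and stood at 0.18 in H441. Each of these calls was lost in 2 to 4 of the 24 fits that left out 1 array, each time an array of its own line. RAB2A lost its call without H460 δscr replicate 3 (adjusted p = 0.0664) or δ193 replicate 1 (0.0621) or 3 (0.0764), and RAB9A without A549 δscr replicate 1 (0.128) or δ193 replicate 3 (0.0775). RAB13 lost it without H441 δscr replicate 1 (0.0756) or 3 (0.0635) or δ193 replicate 1 (0.0583), and RAB4A without H441 δscr replicate 1 (0.0770) or 2 (0.107) or δ193 replicate 1 (0.105) or 2 (0.110). With its line fitted alone the adjusted p was 0.0629 for RAB9A, 0.260 for RAB13 and 0.230 for RAB4A, and RAB4A was also lost with the replicate number as a block (0.0630).

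The differences between lines were then tested for every gene. The change with δ193 differed among the 4 lines for 9 of the 46 genes (19.6%), against 14.1% of all genes. These were RAB3A, RAB3B, RAB9A, RAB15, RAB23, RAB27B, RAB30, RAB31 and RAB38. Among the 3 lines without H441 it differed for 12 genes (26.1%), against 15.2% of all genes; RAB9A was lost, and RAB5A, RAB17, RAB22A and RAB24 were gained. RAB3B, a secretory RAB, was called in no single line of the fit with H441 but stood at -0.46 in H2009 and 0.45 in H460. Those changes differed by -0.91 (SE 0.22, adjusted p = 0.0153). The comparison by K-ras class called 3 genes lower and 2 higher in the dependent lines relative to the independent ones, against 2.02% and 2.63% of all genes. RAB27B (-0.80, adjusted p = 4.53e-05), RAB31 (-0.79, 0.000466) and RAB38 (-0.46, 0.0128) were on the lower side, and RAB15 (0.51, 0.0034) and RAB24 (0.37, 0.0459) on the higher. The class call of RAB24 lay close to the threshold, and RAB24 did not pass the F test over the 4 lines (adjusted p = 0.0633). With H441 left out, H2009 minus the mean of A549 and H460 gave -0.47 for RAB27B, -0.59 for RAB31, -0.47 for RAB38, 0.64 for RAB15 and 0.47 for RAB24, all still called. Another 4 genes were then called as well, RAB3A at 0.51, RAB3B at -0.56, RAB21 at -0.36 and RAB22A at -0.38, which made 6 lower and 3 higher, against 2.92% and 4.5% of all genes. Each class holds only 2 lines, so a difference of class and a difference of single lines cannot be told apart. Within the dependent class the change of RAB27B in H2009 exceeded that in H441 by 0.65 (SE 0.14, adjusted p = 0.00688).

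**Figure D4:**
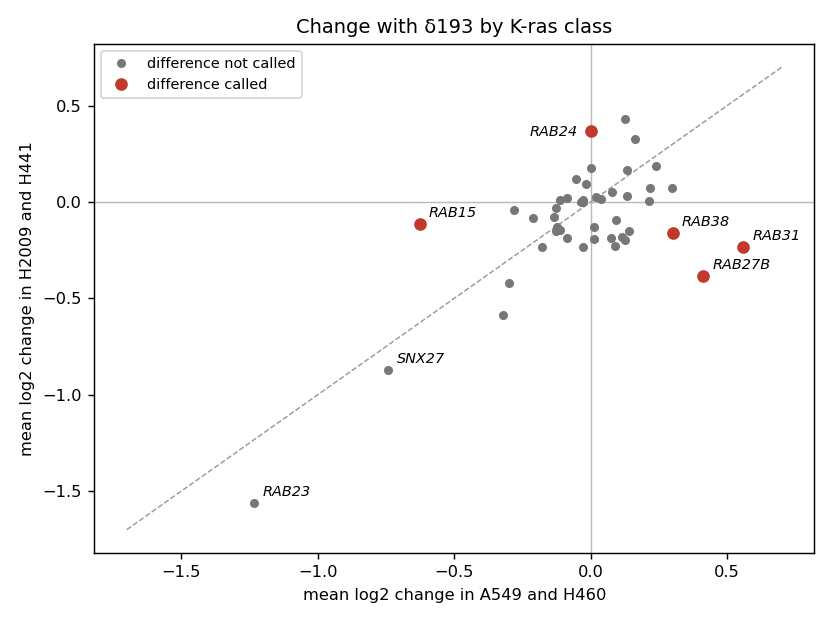
Mean log2 change (δ193 minus δscr) of each of the 46 genes in H2009 and H441 (vertical) against that in A549 and H460 (horizontal), with the 5 genes whose class difference was called in red and the dashed line marking equal change. RAB23 and SNX27 lie apart from the rest at the lower left, and RAB27B, RAB31, RAB38, RAB15 and RAB24 lie off it.

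The level in δscr cells varied between lines for 45 of the 46 genes (97.8%, F test), against 73.7% of all genes, with RAB39B as the exception (adjusted p = 0.248). Without H441 it varied for 42 genes (91.3%), against 66.4% of all genes, the exceptions being RAB3A, RAB9A, RAB14 and RAB43. The range between the highest and lowest line had a median of 0.92 in this set and 0.627 over all genes, or 0.733 and 0.421 without H441. Most of the 46 genes averaged above 5.79, the median of all gene means over the 24 arrays. These comparisons with all genes were not matched for level. H2009 held the highest δscr mean for 18 genes, A549 for 15, H441 for 9 and H460 for 4, and H441 held the lowest for 19. RAB25, a RAB11 relative of epithelial recycling endosomes, had the widest range: 7.44 ± 0.18 (SD, n = 3) in H2009, against 3.13 (H441), 2.97 (A549) and 2.91 (H460), and the last 3 did not differ past the test. Of the epithelial markers, EPCAM, CDH1, KRT7 and KRT19 were also highest in H2009 δscr cells, while KRT8 and KRT18 were highest in A549. CDH1 still read 8.73 in A549 δscr cells, where RAB25 was near the bottom of the scale. RAB15 was highest in A549 (8.17), then H460 (5.66), with H441 (4.88) and H2009 (4.86) not past the test. RAB28 was ordered H2009 (7.51), A549 (6.32), H460 (5.46) and H441 (4.79), and RAB3B in the same order with 7.16, 6.20, 5.18 and 4.63, with every neighbouring pair past the test for both. The paralogs RAB27A and RAB27B had different orders: RAB27A was highest in H441 (8.44) and lowest in A549 (6.11), with H2009 (7.20) and H460 (7.11) between and not past the test. RAB27B was highest in A549 (8.94), followed by H460 (8.25), H441 (7.60) and H2009 (7.06), all neighbours past the test. RAB3D, of regulated secretion, read 7.05 in A549, 6.36 in H2009, 6.07 in H441 and 5.27 in H460, and RAB20, linked to phagosome maturation, read 6.91 in H2009, 6.07 in H460, 5.46 in H441 and 5.15 in A549. H2009 and H441 did not differ past the test for RAB3D, nor H441 and A549 for RAB20. In the same cells RAB23 was highest in H2009 (7.68), with the other lines between 6.76 and 6.98 and no pair of neighbours among them past the test. SNX27 lay between 8.39 (H441) and 9.0 (H460).

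**Figure D5:**
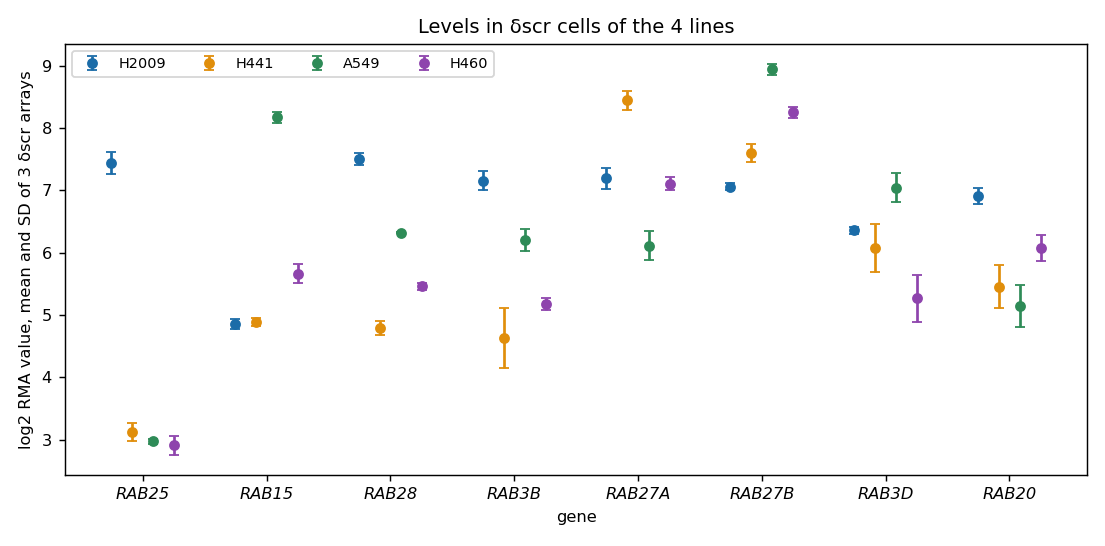
Log2 RMA values in δscr cells (mean and SD of 3 arrays) of the 8 genes with the widest range between lines, coloured by line. RAB25 reaches 7.44 in H2009 and stays near 3 in the others, and RAB15 and RAB27B are highest in A549 (8.17 and 8.94).

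The 30 genes called in no line include RAB1A, RAB1B, RAB5A, RAB5C, RAB6A, RAB7A, RAB8A, RAB10, RAB11A, RAB11B, RAB14 and RAB18. RAB7A, the late endosome RAB, stood at 0.01, -0.01, -0.10 and 0.04 in H2009, H441, A549 and H460 (SE 0.07). RAB8A, of traffic to the plasma membrane and cilium, stood at 0.00, 0.03, 0.08 and 0.00 (SE 0.12). RAB11A, the recycling RAB, stood at -0.08, -0.22, -0.11 and -0.15 (SE 0.08) and its mean of -0.14 (adjusted p = 0.0187) was under the fold threshold. RAB1B reached -0.32 in H441 with an adjusted p of 0.0182, just under that threshold. Over the 30 genes the changes ran between -0.46 (RAB3B) and 0.33 (RAB27A) in H2009, between -0.32 (RAB1B) and 0.60 (RAB39B) in H441, between -0.29 (RAB8B) and 0.25 (RAB27A) in A549, and between -0.19 (RAB10) and 0.46 (RAB43) in H460. SEs among them ran from 0.07 to 0.22, and the largest belonged to RAB39B, which is measured near the bottom of the scale. Closely related pairs such as RAB1A and RAB1B or RAB11A and RAB11B share sequence, and a probe that reads both would blur their values.

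The proteins that act on RABs were counted with the same calls, and the shares of all genes called lower or higher in each line are those given above. None of 6 measured genes of the GDI and prenylation cycle (GDI2, CHML, RABGGTA, RABGGTB, RABIF and RABAC1) was called in any line by limma, and at an unadjusted p under 0.05 there were 3 in H441 and 0 in each other line. Of 41 exchange factor genes, H441 had 3 lower and 6 higher, H2009 1 of each, H460 2 of each and A549 0 (5 at an unadjusted p under 0.05), and 11 (26.8%) were called in at least 1 line, close to the 22.5% of all genes. HPS4, part of an exchange factor for RAB32 and RAB38, rose by 0.62 in H441, MON1A, part of that for RAB7, rose by 0.60 in H441 and 0.35 in H460, and RAB3GAP1, which with RAB3GAP2 activates RAB18, rose by 0.55 in H441. Of 34 GTPase activating protein genes, H441 had 4 lower and 2 higher, A549 1 of each, H460 1 lower and H2009 0 (9 at an unadjusted p under 0.05), with TBC1D30 at 0.76, TBC1D9 at -0.55 and EVI5L at 0.49 in H441. In all, 7 of the 34 (20.6%) were called in at least 1 line, against 22.5% of all genes. H441 thus held more of the calls in these regulators than any other line, as it does over all genes.

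Among 48 effector genes, H2009 had 3 lower and 2 higher, H441 2 lower and 3 higher, A549 1 lower and 3 higher, and H460 2 higher. In at least 1 line 9 of them (18.8%) were called, below the 22.5% of all genes. The 3 with the largest called change were SYTL3, MYO5C and MLPH. SYTL3, a synaptotagmin-like effector of RAB27, rose in H460 (1.02, adjusted p = 0.00105), H441 (0.99, 0.00056) and A549 (0.70, 0.0258), and stood at 0.16 in H2009. MLPH, which links RAB27A to myosin Va in melanocytes, was lower in H2009 (-0.34) and higher in A549 (0.51) and H460 (0.33). MYO5C, a class V myosin that moves secretory vesicles, fell by 0.54 in H2009 and by 0.70 in H441. The other synaptotagmin-like genes of the list (SYTL1, SYTL2, SYTL4 and SYTL5), MYRIP and EXPH5 were called in no line, and UNC13D, a further effector of RAB27, fell by 0.50 in A549.

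None of the measured partners of SNX27 was called in all 4 lines. Retromer, the WASH complex and its commander partners had 14 measured genes. Of these, limma called 4 higher in H441, 1 lower in H460 and 0 in H2009 or A549 (3 and 1 at an unadjusted p under 0.05). This made 5 (35.7%) called in at least 1 line, against 22.5% of all genes. All 4 higher calls were in H441, where 7.09% of all genes were called higher. The gene lower in H460, where SNX27 was lower too, was ANKRD50 (-0.37, adjusted p = 0.0418), which works with SNX27 and retromer in recycling. WASHC1 rose by 0.58, CCDC22 by 0.49 and COMMD1 by 0.43 in H441. The retromer core gene VPS35 stood at 0.18, 0.08, -0.04 and -0.10 in H2009, H441, A549 and H460 (SE 0.09). Of 28 other sorting nexins, H441 had 4 lower and 2 higher, H2009 1 higher, H460 1 lower and A549 0 (5 at an unadjusted p under 0.05), with 7 (25%) called in at least 1 line against 22.5% of all genes. SNX16, an endosomal nexin, fell by 0.61 in H441 and by 0.77 in H460, SNX10 rose by 0.64 in H2009 and SNX24 rose by 0.48 in H441. SNX27 was the only sorting nexin measured here that was called lower in all 4 lines.

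Genes close to RAB23 by function were given next. None of 5 genes of the planar polarity effector complex of the cilium (INTU, FUZ, WDPCP, CPLANE1 and CPLANE2) was called by limma, with 1 at an unadjusted p under 0.05 in H2009, 1 in H460 and 0 in the other lines. INTU and FUZ are known as the exchange factor for RAB23. Of 19 hedgehog pathway genes, H441 had 4 lower, A549 3, H460 2 and H2009 1, and PTCH1 was higher in H460. In at least 1 line 5 of them (26.3%) were called, against 22.5% of all genes. TULP3, a tubby-like protein that carries receptors into cilia and restrains the pathway in the mouse, fell in all 4 lines, with changes of -0.62 (H2009, adjusted p = 0.00284), -0.44 (H441, 0.0137), -0.57 (A549, 0.0055) and -0.44 (H460, 0.0313), SE 0.12 each. CDON, a hedgehog co-receptor, fell in H441 (-0.94), H460 (-0.69) and A549 (-0.35). PTCH1, the hedgehog receptor and itself a target of the pathway, fell by 0.69 in A549 (adjusted p = 0.0242) and rose by 1.15 in H460 (0.000212). GLI1, the other classical target, stood at -0.14, 0.03, -0.34 and 0.18 in H2009, H441, A549 and H460 and was not called. Of 20 further RAB and RAB-like genes outside the set, H2009 and H441 each had 1 lower and 1 higher, A549 1 higher and H460 0 (2 at an unadjusted p under 0.05). In at least 1 line 5 of these 20 (25%) were called, against 22.5% of all genes. RAB29, a RAB of lysosomes and the Golgi, rose by 0.56 in H2009, RAB19 fell by 0.59 in H2009 and RAB40AL fell by 0.49 in H441.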

How the data were processed

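RNA from 24 cultures (4 NSCLC lines, δ193 or δscr shRNA, 3 biological replicates each) was measured with the Human Gene 1.0 ST array of Affymetrix. The deposited table holds log2 values that the authors made with the Robust Multiarray Average method in Affymetrix Power Tools, with versions and genome build not given in the sources used here. No value column was left out. Array values carry no read depth, and the number of arrays limits the precision.

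Clusters with 1 gene symbol (19460 of 33252) were kept, and 769 genes with several took the one with the highest mean, giving 18417 genes. The 8 group means were fitted on all 24 arrays with limma 3.58.1 in R 4.3.3, with Benjamini-Hochberg adjustment over all genes. The fit was tried on simulated data in which a gene had the same spread in every line. Those data did not cover the wider spread of the H441 arrays. A call needed both an adjusted p under 0.05 and means that differed by 25% or more as a ratio, the threshold of the methods. F tests had 3 degrees of freedom over the 4 lines and 2 over the 3 lines without H441. Array values were given for genes called in 2 or more lines and for the 2 largest called rises and falls of each line, baseline means for the 8 widest ranges, and up to 3 genes of each further list. The genes and lists were chosen with earlier results of these data known. Alternatives changed the variance model, scaling, filter, threshold, cluster, block, arrays and test, the methods' Student test among them. Promoter windows were read from RefSeq, GRCh38.p14. Protein sequences were not used here.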

Additional observations from a re-analysis of the deposited data

Results flagged for a closer look

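Differences between lines under the same contrast (δ193 minus δscr) brought up the following results. The mean change in H2009 and H441 minus that in A549 and H460 was 0.51 for RAB15, 0.37 for RAB24, -0.80 for RAB27B, -0.79 for RAB31 and -0.46 for RAB38, each past limma's adjusted p of 0.05 and the fold threshold. For RAB24 that p was 0.0459, and limma's F test over the 4 lines did not pass (adjusted p = 0.0633). The change differed among the 4 lines by limma's F test for RAB3A (adjusted p = 0.0252), RAB3B (0.0118), RAB9A (0.0138), RAB15 (0.0033), RAB23 (0.028), RAB27B (1.13e-05), RAB30 (0.0268), RAB31 (8.01e-05) and RAB38 (0.0186). Both RAB27B and RAB31 were called lower with δ193 in H441 and higher in a K-ras independent line. The RAB31 arrays of the δ193 and δscr groups overlapped in H441. That call was lost without H441 δ193 replicate 3, without H441 δscr replicate 1 and with H441 fitted alone. RAB23 was lower in every line and differed in size, with the smallest change in H460.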

How the results depend on the processing

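Counts are of the 46 genes. Calls within H2009 (6), H441 (8), A549 (6) and H460 (7), for the mean change (5), for the class (5) and for the F test of change (9) moved by over 1.5 times as follows. With no fold threshold the mean change gave 13. With a fold of 1.5 H2009 gave 3, H441 4, H460 3, the mean change 2 and the class 2. Array weights gave 11 in H460, 8 for the class and 20 for the F test of change. Genes above the median level (5.79) alone gave 3 for the class. That filter left out RAB15 (mean 5.71) and RAB38 (4.96), which were called for the class in the main fit. The class without H441, chosen after seeing the data, gave 9. H441 fitted alone gave 4. The methods' t-test after Benjamini-Hochberg gave 2 (H2009), 0 (H441), 1 (A549) and 4 (H460), and 9, 6, 7 and 8 unadjusted at the methods' threshold. Apart from the changed fold thresholds and the genes left out by the filter, the cause of these moves was not tested. Leaving out 1 array gave 4 to 7 calls in H2009, 5 to 12 in H441, 5 to 6 in A549, 4 to 8 in H460, 5 to 6 for the mean change, 4 to 6 for the class, 7 to 13 for the F test of change and 44 to 46 for that of the δscr level. The H441 count was 5 without δscr replicate 1 and 12 without δscr replicate 2. RAB23 and SNX27 stayed called in all lines in the 24 such fits, and the methods' t-test after adjustment lost RAB23 in H441 and SNX27 in H2009, H441 and A549. No change turned its direction, and 823 single-gene values kept their side of the threshold while 83 lost it. Same-numbered δ193 and δscr arrays correlated between -0.09 and 0.28 in their deviations from group means, and in no line were all 3 over 0.1, nor did every array correlate best with its own number, so the numbers were not taken as pairs. The replicate block gave 6, 8, 6 and 6 calls in H2009, H441, A549 and H460, 5 for the mean change, 5 for the class, 11 for the F test of change and 45 for that of the δscr level. It lost RAB4A in H441 and RAB12 in H460 and gained RAB39B in H441.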
